A study of Mus musculus with 27 samples.

Results

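Whole colon tissue was compared with whole jejunum tissue of control mice, with 4 libraries from colon and 3 from jejunum among the 27 libraries of the study. The control mice were C57BL/6 animals that drank water for 8 weeks, with no transgene, deletion or drug named in the labels. The other tissue libraries of the study came from mice of the same strain given 15% ethanol for 8 weeks, and the remaining libraries came from organoids, which are cultures of epithelium grown from crypts in a gel. Each library carries a donor number, while age, sex and the stretch of colon that was sampled are not given in the sources used here. Libraries were made with the QuantSeq 3′ kit, which yields 1 tag near the 3′ end of each transcript, so that counts can be compared between genes without a length correction. Of 23420 genes listed, 13300 had enough counts to be tested. Values below are CPM, a gene's share of a library's counts on a scale with the same total in every library, computed without the ribosomal RNA gene Rn45s and scaled by the trimmed mean of M values. Colon values are given in the order of libraries 1 to 4 and jejunum values in the order of libraries 1 to 3. Levels of different genes may still not be comparable. Gapdh was at only 2.94 to 4.6 CPM in the control tissue libraries, and Eno1 had no count in any of them.

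The jejunum is the middle part of the small intestine. Its villi carry absorptive cells (enterocytes) with a brush border of digestive enzymes and transporters, which take up sugars, amino acids and fat, and its crypts hold Paneth cells, which secrete antimicrobial peptides. The colon has no villi and no regular Paneth cells. Its surface cells recover salt and water and use short-chain fatty acids from bacterial fermentation, and its many goblet cells build a thick layer of mucus. Cells of both segments descend from crypt stem cells, and their position along the gut is recorded by transcription factors such as the GATA, CDX and Hox proteins.

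The colon libraries were deeper, at 3536937 to 6349339 counts outside Rn45s against 684906 to 1510057 in jejunum, and 15362 to 16206 genes had at least 1 count in colon against 11843 to 12931 in jejunum. Rn45s took 22.5 ± 2.86% (SD, n = 4) of all counts in colon and 80.4 ± 4.03% (SD, n = 3) in jejunum, a difference, colon minus jejunum, of -57.9 percentage points (two-sided exact permutation test, p = 0.0286, the smallest that 4 against 3 libraries allow). Depth and this share thus moved with the segment in every library, and their part in the differences below was not tested. Colon library 1 stood apart from the other colon libraries: Hoxb13, a gene of the most caudal gut, was at 139, 0, 0.237 and 0 CPM in colon, and the carbonic anhydrase gene Car1 at 629, 26135, 15641 and 20798 CPM. Summed over the 20 smooth muscle markers it held 26430 CPM against 8230.0 to 9656 CPM in the others. Segment markers matched the labels: the 30 Paneth cell markers listed summed to at most 212 CPM in any colon library and at least 23610 CPM in any jejunum library. Donor numbers did not show whether colon and jejunum libraries came from the same animals, so libraries were not paired. The p-values of the tissue gene tests below measure only the spread between libraries within groups. That spread was estimated over all 15 tissue libraries, those of mice given ethanol included. In whole tissue, fewer cells of a type and less RNA per cell cannot be told apart.

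The segments differed in a large share of the genes tested. With edgeR's quasi-likelihood test and Benjamini-Hochberg adjustment at 0.05, 3156 genes were higher in colon (23.7% of those tested) and 2491 were higher in jejunum (18.7%). Beyond a 2-fold difference, 1246 genes were higher in colon (9.37%) and 1035 in jejunum (7.78%), and without jejunum library 1 the colon number was 788. Ranges did not overlap, with every colon library above every jejunum library, for 3868 genes (29.1%), and the other way round for 2581 genes (19.4%). With every library thinned to the depth of the shallowest one, 610 genes were higher in colon and 1090 in jejunum, so that the larger number then lay on the jejunum side. The median log2 fold change over all genes tested was 0.26, and all fold changes below are colon minus jejunum, with the standard error of the fit. Of the 3156 colon genes, 1747 (55.4%) stayed called whichever 1 of the 7 libraries was left out, as did 1728 (69.4%) of the 2491 jejunum genes. Each "adjusted p" below is from the same edgeR fit over all 13300 genes, and a gene is called higher in a segment only where that value is under 0.05. Of the 116 called genes named below, 31 changed in size by over 1.5 times when 1 library was left out, and their values without that library are given in the same brackets, with a counting interval where few counts remained.

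Transcription factors that set the identity of gut segments split in both directions. Of 28 tested, 6 were higher in colon (21.4%, against 23.7% of all genes tested) and 11 in jejunum (39.3%, against 18.7%). Gata4, which in adult gut is needed for the jejunal programme, was at 0, 0.534, 0 and 0 CPM in colon and 167, 129 and 182 CPM in jejunum (a 1820.5-fold ratio with a 95% counting interval of 501 to 15075, adjusted p = 1.72e-10). The gene lies on chromosome 14 from 63198922 to 63271692 on the minus strand (GRCm38). Its relative Gata5 was at 0.598, 1.34, 2.61 and 0.867 CPM in colon and 180.4, 116 and 188 CPM in jejunum (log2 fold change -6.99 ± 0.46, adjusted p = 1.44e-09). Gata6, the member active along the whole gut, differed less, at 55, 84.2, 63 and 67.6 CPM against 136, 116 and 117 CPM (log2 fold change -0.87 ± 0.21, adjusted p = 0.00291). The 3 GATA genes thus separated the segments with no overlap, by very unequal amounts.

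Hnf4g, a nuclear receptor that drives enterocyte genes, was at 25, 67.9, 41.7 and 47.7 CPM in colon and 638, 463 and 701 CPM in jejunum (log2 fold change -3.73 ± 0.34, adjusted p = 1.44e-07). Its partner Hnf4a overlapped between the segments at 127, 311, 231 and 237 CPM and 122, 149 and 147 CPM (log2 fold change 0.70 ± 0.35, adjusted p = 0.116). Without colon library 1 Hnf4a was called higher in colon (log2 fold change 0.90, adjusted p = 0.0441). Creb3l3, a regulator of apolipoprotein genes, followed Hnf4g, at 1.91, 11.5, 12.6 and 14.2 CPM in colon and 700.0, 461 and 709.8 CPM in jejunum (log2 fold change -5.98 ± 0.67, adjusted p = 8.15e-06). Maf was also higher in jejunum, at 15.8, 57.2, 29.2 and 29.3 CPM against 384, 376 and 689 CPM (log2 fold change -3.89 ± 0.50, adjusted p = 1.78e-05). In the opposite direction, the forkhead gene Foxd2 was at 83.1, 110.1, 111 and 137 CPM in colon and 0, 0 and 0.833 CPM in jejunum (a 318-fold ratio with a 95% counting interval of 57 to 12551, adjusted p = 4.85e-08). The caudal homeobox genes were higher in colon by less: Cdx1 was at 233, 367, 316 and 345 CPM against 95.1, 92 and 70 CPM (log2 fold change 1.88 ± 0.28, adjusted p = 3.4e-05). Cdx2, which maintains intestinal identity in both segments, was at 64.3, 114, 108 and 174 CPM against 46.7, 55.2 and 33.3 CPM (log2 fold change 1.37 ± 0.37, adjusted p = 0.00635). Every colon library lay above every jejunum library for these 3 genes.

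Hox genes mark position along the body axis, with higher numbers in a cluster expressed more caudally. Of 28 Hox genes tested, 9 were higher in colon (32.1%, against 23.7% of all genes tested) and 3 in jejunum (10.7%, against 18.7%). Without jejunum library 3 these counts were 5 and 1. Hoxb9, on chromosome 11 from 96271457 to 96276595 on the plus strand, was at 38.1, 42.5, 39.3 and 50.5 CPM in colon and had no count in any jejunum library (at least 42.1-fold higher in colon, adjusted p = 8.83e-07). Hoxa10 was at 104, 13.9, 28.7 and 27.9 CPM in colon and 0 in jejunum (at least 43.2-fold higher in colon, adjusted p = 0.00781, and at least 23.2-fold without colon library 1). Hoxa11 was at 19.4, 6.15, 6.87 and 8.85 CPM and 0 (at least 10.2-fold higher in colon, adjusted p = 0.00229). Colon library 1 was the highest of the 4 for the latter 2 genes and the lowest for Hoxb9. Hoxc8 went the other way, at 0, 1.07, 3.32 and 1.73 CPM in colon and 43.1, 29.1 and 138 CPM in jejunum (log2 fold change -5.64 ± 1.09, adjusted p = 0.00119, and -6.35 without colon library 3, and -4.67 without jejunum library 3). Several B-cluster genes were low in colon library 1 and high in the other 3, among them Hoxb6, at 8.25, 179.6, 135 and 123 CPM in colon and 26.9, 6.13 and 9.16 CPM in jejunum (log2 fold change 2.92 ± 1.20, adjusted p = 0.067). Hoxb6 passed the test when colon library 1 was left out (log2 fold change 3.31, adjusted p = 0.0217).

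**Figure D1:**
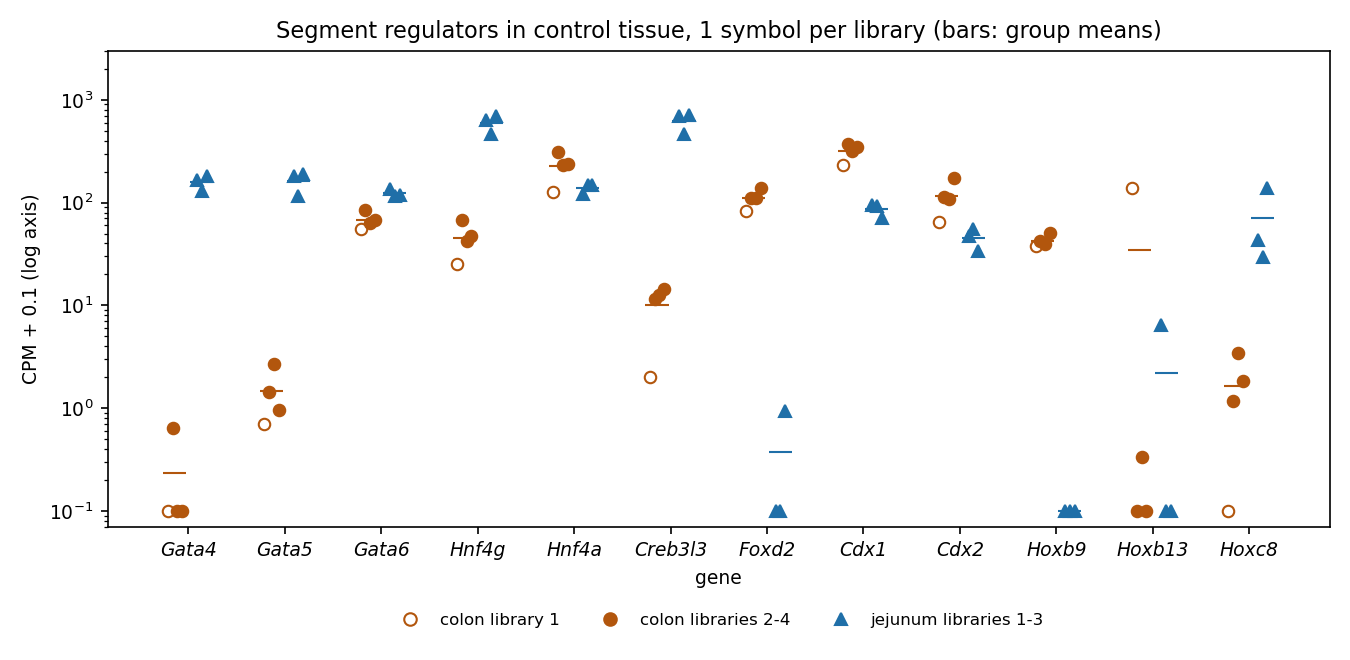
CPM of 12 transcription factor genes in each control library on a logarithmic axis (CPM + 0.1), with colon libraries as circles (library 1 open) and jejunum libraries as triangles, and short bars at the group means. Gata4 and Gata5 sit at or below 2.61 CPM in colon and at or above 116 CPM in jejunum, Foxd2 and Hoxb9 sit the other way round, and Hoxb13 is high in colon library 1 alone.

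Genes of digestion at the brush border were nearly all on the jejunum side. Of 19 brush border enzyme genes tested, 18 were higher in jejunum and none in colon, with a median log2 fold change of -5.62, and all 18 stayed called whichever library was left out. Lct encodes lactase, which splits milk sugar, and was at 0.717, 5.88, 0.237 and 0.694 CPM in colon and 5330.2, 4667 and 3716 CPM in jejunum (log2 fold change -11.38 ± 0.87, adjusted p = 5.43e-08, and -12.86 without colon library 2). Treh, the enzyme that splits trehalose, was at 0, 0, 0.237 and 0 CPM and 253, 302 and 249.9 CPM (a 5800.3-fold ratio with a 95% counting interval of 1038 to 229390, adjusted p = 3.24e-11). The peptidase gene Anpep was at 4.9, 11, 5.93 and 10.6 CPM and 6203, 2311 and 7109.6 CPM (log2 fold change -9.34 ± 0.51, adjusted p = 1.08e-10). The member that was not called, the meprin gene Mep1a, overlapped between the segments at 266, 576, 773 and 578 CPM and 1124, 572 and 1869.5 CPM (log2 fold change -1.12 ± 0.52, adjusted p = 0.0956), and it was called only without jejunum library 2 (log2 fold change -1.45, adjusted p = 0.0463).

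The Lct promoter is shown because lactase was among the genes that separated the segments most and because this short region is a textbook target of GATA, CDX and HNF1 factors. The 250 bases before the RefSeq start (GRCm38.p6, minus strand, chr1:128328319-128328568) are printed with capitals at every match, on either strand, to AGATAA for GATA factors, TTTATG for CDX factors or GTTAAT for HNF1 (a half-site). These 3 letter strings cannot lie inside one another.
Lct: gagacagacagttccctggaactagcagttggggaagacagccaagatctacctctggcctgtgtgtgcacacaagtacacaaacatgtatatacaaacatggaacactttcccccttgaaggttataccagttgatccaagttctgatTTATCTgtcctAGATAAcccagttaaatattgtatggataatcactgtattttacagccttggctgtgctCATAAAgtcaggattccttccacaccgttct
It held 2 GATA matches and 1 CDX match. Among 27025 RefSeq promoters of that length, 10.3% held a GATA match, 11.1% a CDX match and 6.52% an HNF1 match, so such matches are common, and a match is a string of letters and not a shown binding site.

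Transporters followed the enzymes. Of 26 nutrient transporter genes tested, 21 were higher in jejunum and 1 in colon. The sodium-coupled monocarboxylate transporter Slc5a12 was at 0, 0.267, 0 and 0 CPM in colon and 149.9, 162 and 171 CPM in jejunum (a 3559-fold ratio with a 95% counting interval of 636 to 140870, adjusted p = 1.08e-10). Slc2a2, the basolateral glucose carrier GLUT2, was at 0.12, 0.802, 0 and 0 CPM and 264, 365 and 181 CPM (log2 fold change -10.30 ± 0.96, adjusted p = 1.69e-06, and a 4632-fold ratio (829 to 183210) without colon library 2). Slc6a19, the main carrier for neutral amino acids, was at 0, 0.267, 0 and 0 CPM and 58.3, 13.8 and 70.8 CPM (a 1184-fold ratio with a 95% counting interval of 209 to 47051, adjusted p = 6.53e-08), with jejunum library 2 the lowest of its group. The exception was Slc40a1, the ferroportin gene through which iron leaves the cell, at 26.4, 294, 186 and 129.9 CPM in colon and 1.79, 0 and 0.833 CPM in jejunum (a 128-fold ratio with a 95% counting interval of 43.7 to 620.4, adjusted p = 0.000644). Slc10a2, the bile acid carrier, was at 0.717, 146, 108 and 73.4 CPM in colon and 2.69, 0 and 1.67 CPM in jejunum (log2 fold change 5.59 ± 2.43, adjusted p = 0.0841), and it passed the test only when colon library 1 was left out (log2 fold change 6.01, adjusted p = 0.0403).

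Fat absorption showed the same split. Of 25 genes tested, 22 were higher in jejunum and 1 in colon. Apoa1, the apolipoprotein of high-density lipoprotein, was at 6.45, 11.8, 1.19 and 4.34 CPM in colon and 14615, 7797 and 13509 CPM in jejunum (log2 fold change -10.98 ± 0.70, adjusted p = 1.4e-09). Mttp, which loads lipid onto nascent chylomicrons, was at 1.43, 4.54, 0.474 and 1.04 CPM and 1649, 1698 and 1972 CPM (log2 fold change -9.95 ± 0.56, adjusted p = 1.88e-10, and -10.68 without colon library 2). Npc1l1, the cholesterol uptake protein, was at 0.717, 3.21, 2.13 and 1.73 CPM and 1861, 1476 and 2176 CPM (log2 fold change -9.96 ± 0.58, adjusted p = 3.81e-10). The lowest jejunum library was far above the highest colon library for each of these 3 genes. The lipid droplet gene Plin2 was not called, at 74.5, 104, 139.6 and 106 CPM and 137, 135 and 142 CPM (log2 fold change -0.39 ± 0.25, adjusted p = 0.225). The colon gene was Scarb1, a lipoprotein receptor, at 16.5, 14.7, 11.8 and 12.5 CPM and 1.79, 0 and 2.5 CPM (log2 fold change 3.06 ± 0.65, adjusted p = 0.00116).

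Intermediary metabolism of absorbed nutrients was also a jejunal feature. For fructose use and gluconeogenesis 9 of 10 genes tested were higher in jejunum and none in colon, and all 9 stayed called whichever library was left out. Khk, the kinase that starts fructose breakdown, was at 10.9, 16, 30.6 and 20.5 CPM in colon and 756, 760.2 and 692 CPM in jejunum (log2 fold change -5.24 ± 0.35, adjusted p = 2.18e-09). For citrulline and amino acid metabolism 9 of 11 were higher in jejunum and 1, Asl, in colon. Otc, which makes citrulline, was at 22.3, 36.6, 30.6 and 41.5 CPM and 329, 221 and 249.9 CPM (log2 fold change -3.03 ± 0.28, adjusted p = 1.29e-07). Asl, which splits argininosuccinate, was at 7.77, 11.8, 10.4 and 7.98 CPM and 0, 4.6 and 1.67 CPM (log2 fold change 2.41 ± 0.65, adjusted p = 0.00692, and 1.73 without jejunum library 1, and a 10.4-fold ratio (2.85 to 86.7) without jejunum library 2). The microvillus cytoskeleton moved with the enzymes: 15 of 19 genes were higher in jejunum, none in colon. Its scaffold Pdzk1 was at 0.239, 0.802, 0 and 0.347 CPM and 854, 592 and 878 CPM (log2 fold change -11.11 ± 0.45, adjusted p = 2.06e-12). The motor gene Myo1a was at 147, 257, 257 and 259 CPM and 1932, 1413 and 1837 CPM (log2 fold change -2.91 ± 0.31, adjusted p = 9.33e-07).

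**Figure D2:**
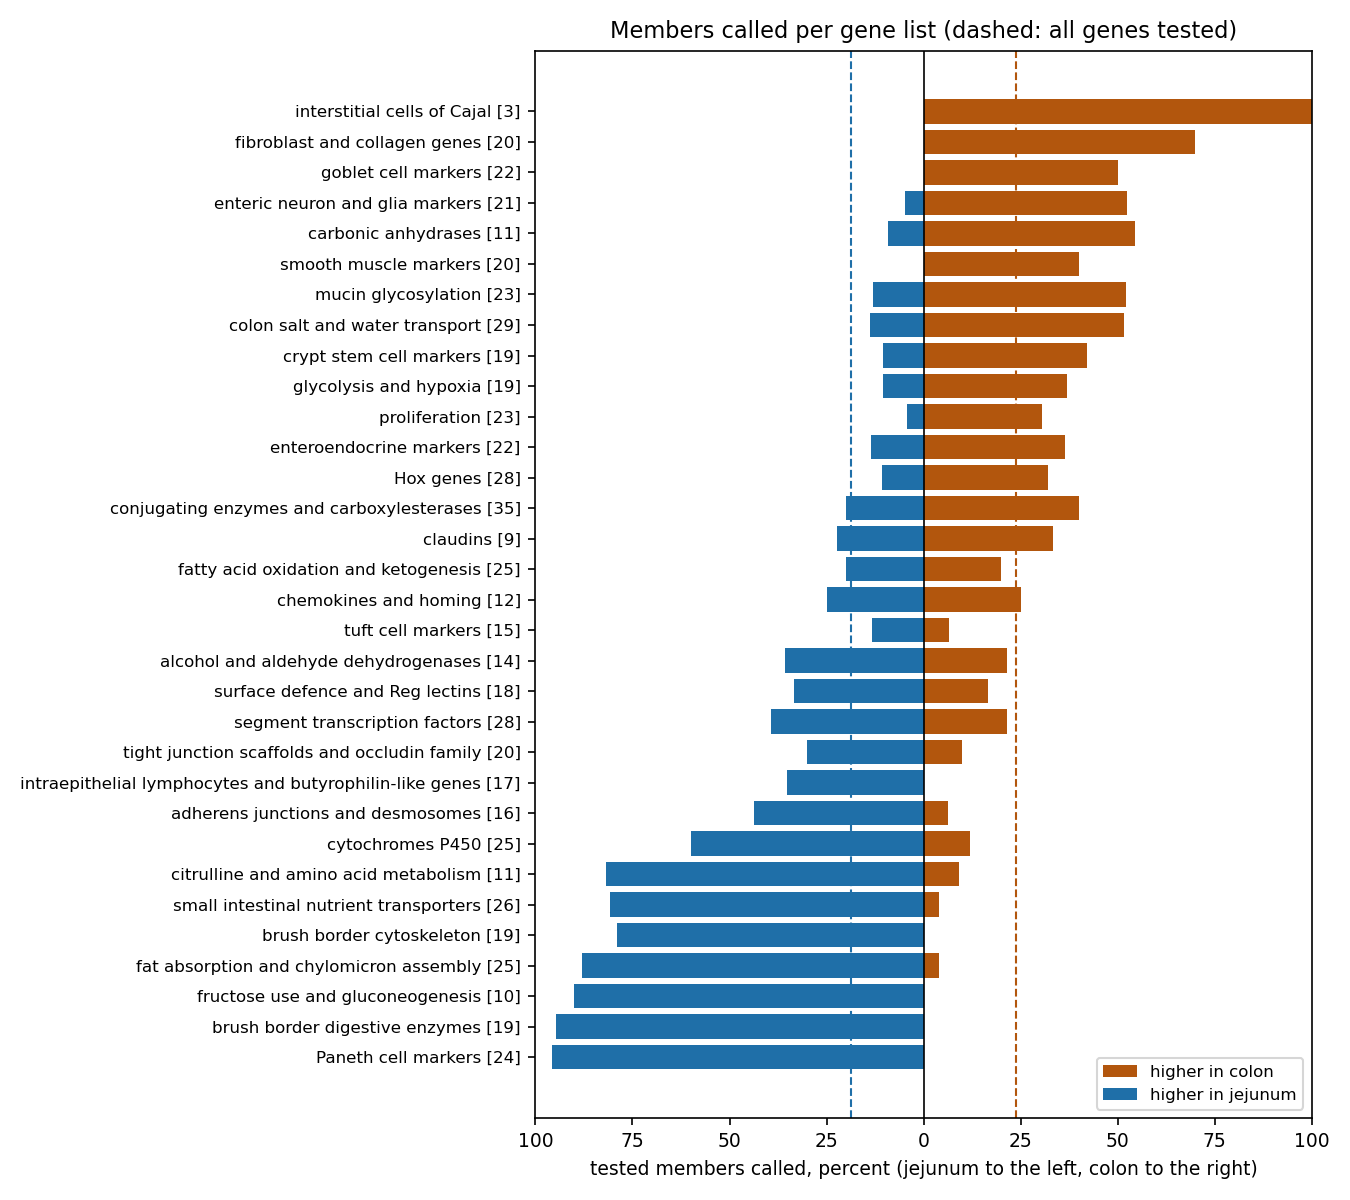
Percent of the tested members of each of 32 gene lists that were called higher in colon (bars to the right) or in jejunum (bars to the left), with the number tested in brackets. Dashed lines mark the background over all 13300 genes, 23.7% for colon and 18.7% for jejunum; the Paneth (95.8%) and brush border enzyme (94.7%) lists extend farthest to the left, and the Cajal (100% of 3) and fibroblast (70.0%) lists farthest to the right.

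Genes for salt and water transport leaned to colon, with exceptions. Of 29 tested, 15 were higher in colon and 4 in jejunum. Hsd11b2 inactivates glucocorticoids and so lets aldosterone act on its receptor, and was at 162, 206, 186 and 287 CPM in colon and 8.97, 4.6 and 0 CPM in jejunum (log2 fold change 5.56 ± 0.64, adjusted p = 4.96e-06, and a 128-fold ratio (43.7 to 619.7) without jejunum library 1, and 4.87 without jejunum library 3). Scnn1b, a subunit of the sodium channel ENaC that aldosterone controls, was at 2.51, 9.89, 5.45 and 11.8 CPM and had no count in jejunum (at least 7.33-fold higher in colon, adjusted p = 0.00426). The water channel gene Aqp8 was at 248, 50, 31 and 159.9 CPM and 1.79, 0 and 0.833 CPM (a 148-fold ratio with a 95% counting interval of 50.8 to 720.4, adjusted p = 0.00496, and a 89.4-fold ratio (30.5 to 434) without colon library 1). The chloride and bicarbonate exchanger Slc26a3, known for its role in colon, was not called, at 596, 205, 194 and 498 CPM against 403, 212 and 275 CPM (log2 fold change 0.33 ± 0.49, adjusted p = 0.61). On the jejunum side, the anion exchanger Slc26a6 had no count in colon and was at 8.97, 13.8 and 14.2 CPM in jejunum (at least 90.7-fold higher in jejunum, adjusted p = 0.000222).

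Carbonic anhydrases, which supply bicarbonate and protons to these exchangers, were higher in colon for 6 of 11 genes tested and in jejunum for 1. Car2, the cytosolic form, was at 486, 822, 863 and 1001 CPM in colon and 11.7, 27.6 and 1.67 CPM in jejunum (log2 fold change 5.999 ± 0.56, adjusted p = 2.48e-07, and 6.91 without jejunum library 2, and 5.39 without jejunum library 3). Car4, anchored at the cell surface, was at 199, 557, 522 and 319 CPM and 98.7, 67.4 and 67.5 CPM (log2 fold change 2.35 ± 0.41, adjusted p = 0.000195). Car12 was at 27.1, 82, 81.5 and 110.3 CPM and 7.18, 4.6 and 8.33 CPM (log2 fold change 3.43 ± 0.61, adjusted p = 0.000296). Car1 was the most abundant, at 629, 26135, 15641 and 20798 CPM in colon and 11.7, 544 and 8.33 CPM in jejunum (log2 fold change 6.42 ± 2.33, adjusted p = 0.0439, and 10.63 without jejunum library 2). The lowest colon library (1) and the highest jejunum library (2) for Car1 nearly met, and the call was lost without colon library 2, 3 or 4 (adjusted p = 0.0694, 0.0622 and 0.0661) or jejunum library 1 or 3 (0.114 and 0.106). The 1 jejunal member was Car13, at 9.08, 19.5, 19 and 18.2 CPM and 70.9, 62.8 and 75 CPM (log2 fold change -2.09 ± 0.33, adjusted p = 7.8e-05).

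Guanylin and uroguanylin are peptide hormones that act on the receptor guanylate cyclase C and through it open the chloride channel CFTR. Their genes are neighbours on chromosome 4 and were oppositely distributed. Guca2a, encoding guanylin, was at 811, 1452, 1219 and 1393 CPM in colon and 631, 337 and 404 CPM in jejunum (log2 fold change 1.41 ± 0.40, adjusted p = 0.00831). Guca2b, encoding uroguanylin, was at 36.1, 61.2, 72 and 46.8 CPM and 2206, 1916 and 1911 CPM (log2 fold change -5.22 ± 0.37, adjusted p = 4.72e-09). The receptor gene Gucy2c overlapped between segments, at 214, 455, 495 and 434 CPM and 561, 414 and 583 CPM (log2 fold change -0.38 ± 0.30, adjusted p = 0.318). Cftr was higher in colon, at 105, 104, 83.7 and 93.3 CPM and 26, 42.9 and 20.8 CPM (log2 fold change 1.73 ± 0.31, adjusted p = 0.000294). The ranges of both ligand genes were apart, in opposite directions, while those of the receptor gene overlapped. All 3 calls in this group stayed when any 1 library was left out.

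Both promoters are printed because the 2 genes lie only 17.1 kb apart, with Guca2a on the plus strand (GENCODE vM21, chr4:119637704-119639471) and Guca2b on the minus strand (chr4:119656607-119658954), yet differed in opposite directions. The 250 bases before the RefSeq start of Guca2a (GRCm38.p6, plus strand, chr4:119637482-119637731) and of Guca2b (minus strand, chr4:119658946-119659195) are marked as for Lct.
Guca2a: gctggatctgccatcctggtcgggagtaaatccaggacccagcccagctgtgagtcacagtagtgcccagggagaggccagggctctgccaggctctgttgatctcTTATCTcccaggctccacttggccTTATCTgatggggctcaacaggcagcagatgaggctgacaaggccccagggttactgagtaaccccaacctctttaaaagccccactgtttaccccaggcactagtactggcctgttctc
Guca2b: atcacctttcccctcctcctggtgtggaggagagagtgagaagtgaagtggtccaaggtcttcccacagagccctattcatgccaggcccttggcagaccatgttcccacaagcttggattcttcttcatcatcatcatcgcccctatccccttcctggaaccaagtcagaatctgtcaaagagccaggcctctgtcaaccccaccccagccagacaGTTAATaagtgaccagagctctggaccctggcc
The guanylin window held 2 GATA matches and none of the other 2 strings, and the uroguanylin window held 1 HNF1 match and no GATA or CDX match. GATA matches therefore stood in the promoter of the colon gene of this pair, and no statement about the factors follows from the letters alone.

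Claudins are the membrane proteins that set which ions pass between cells. Of 9 tested, 3 were higher in colon (33.3%, against 23.7% of all genes tested) and 2 in jejunum (22.2%, against 18.7%). All 5 stayed called whichever library was left out. Cldn15, which forms a pore for cations, was at 353, 273, 364 and 379.7 CPM in colon and 3877, 2842 and 2938 CPM in jejunum (log2 fold change -3.23 ± 0.30, adjusted p = 1.38e-07). Cldn7 was at 258, 508, 539 and 686 CPM and 2761, 1525 and 2663 CPM (log2 fold change -2.22 ± 0.32, adjusted p = 3.37e-05). In the other direction, the sealing claudin Cldn3 was at 219.7, 429, 388 and 395 CPM and 86.2, 106 and 45.8 CPM (log2 fold change 2.19 ± 0.47, adjusted p = 0.00135). Cldn8, which restricts sodium back-leak in colon, was at 31.4, 44.9, 24.6 and 30.9 CPM and 2.69, 12.3 and 0.833 CPM (log2 fold change 2.91 ± 0.78, adjusted p = 0.00703, and 4.22 without jejunum library 2, and 2.30 without jejunum library 3). Cldn23 was at 25, 87.9, 64.2 and 66.6 CPM and 6.28, 24.5 and 6.66 CPM (log2 fold change 2.41 ± 0.59, adjusted p = 0.00349, and 3.22 without jejunum library 2). The ranges of these 5 genes did not overlap. Cldn2, another cation and water pore, was not called, at 99.4, 164, 154 and 112 CPM and 83.5, 23 and 82.5 CPM (log2 fold change 1.04 ± 0.50, adjusted p = 0.102). The remaining 3 tested, Cldn4, Cldn5 and Cldn12, had overlapping ranges. Cldn5 was nevertheless called higher in jejunum without colon library 4 (log2 fold change -2.16, adjusted p = 0.0359) or jejunum library 3 (-2.14, adjusted p = 0.0377). Of the 22 claudins listed, 13 had too few counts to be tested.

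Of 20 genes for tight junction scaffolds and the occludin family, 6 were higher in jejunum and 2 in colon. The shares were 30.0% and 10.0%, against 18.7% and 23.7% of all genes tested. The colon count was 1 without colon library 1, jejunum library 1 or jejunum library 2. On the colon side, the cingulin-like gene Cgnl1 was at 69.4, 15.8, 19.7 and 23.4 CPM in colon and 1.79, 0 and 5 CPM in jejunum (log2 fold change 3.61 ± 0.72, adjusted p = 0.000686, and 2.90 without colon library 1, and a 34.3-fold ratio (9.47 to 284) without jejunum library 3). Of 16 genes for adherens junctions and desmosomes, 7 were higher in jejunum (43.8%) and 1 in colon (6.2%). Dsp, the desmosome linker desmoplakin, was at 457, 668, 696 and 648 CPM and 2616, 1919 and 2714 CPM (log2 fold change -1.97 ± 0.24, adjusted p = 3.61e-06). The colon gene was the adhesion molecule Ceacam1, at 1294, 6181, 4728 and 3757 CPM and 419, 503 and 416 CPM (log2 fold change 3.16 ± 0.67, adjusted p = 0.00143). Ctnnb1, encoding beta-catenin, was not called, at 549, 964, 839 and 784 CPM and 886, 887 and 956 CPM (log2 fold change -0.21 ± 0.27, adjusted p = 0.54).

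The 3 mucin genes tested took both sides. Muc2, the secreted gel-forming mucin of goblet cells, was at 15340, 9231, 8626 and 8899 CPM in colon and 1909, 1428 and 1225 CPM in jejunum (log2 fold change 2.79 ± 0.78, adjusted p = 0.00999). Muc13, which stays anchored in the apical membrane, was at 886, 2601, 2354 and 1427 CPM and 7859, 6390.0 and 6751 CPM (log2 fold change -1.95 ± 0.39, adjusted p = 0.000749). Muc4, also membrane-bound, was far lower and higher in colon, at 76.5, 66.8, 30.3 and 42.8 CPM and 11.7, 4.6 and 0 CPM (log2 fold change 3.31 ± 0.66, adjusted p = 0.000817, and a 35.4-fold ratio (12.1 to 172) without jejunum library 1, and 2.64 without jejunum library 3). Colon library 1 held the most Muc2 and the least Muc13 of the 4 colon libraries.

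The promoter of Muc2, the most abundant colon gene beyond a 2-fold difference, is given for comparison with that of Lct (GRCm38.p6, plus strand, chr7:141690090-141690339, the same length and marks).
Muc2: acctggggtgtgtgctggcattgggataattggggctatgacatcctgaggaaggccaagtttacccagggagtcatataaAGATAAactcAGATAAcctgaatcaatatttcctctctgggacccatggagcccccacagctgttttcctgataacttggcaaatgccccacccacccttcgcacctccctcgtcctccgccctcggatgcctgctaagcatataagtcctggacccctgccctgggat
It held 2 GATA matches and neither of the other strings, so the GATA letters occurred both in a jejunal and in a colonic promoter.

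The enzymes that build mucin sugar chains were higher in colon for 12 of 23 genes tested and in jejunum for 3. B3gnt6, which extends the core structure typical of colonic mucin, was at 106, 40.9, 54 and 79.1 CPM in colon and 0, 1.53 and 0.833 CPM in jejunum (a 116-fold ratio with a 95% counting interval of 32 to 957, adjusted p = 0.000107). St6galnac6, a sialyltransferase, was at 488, 360.5, 281 and 284 CPM and 13.5, 6.13 and 5 CPM (log2 fold change 5.40 ± 0.47, adjusted p = 6.23e-08, and 6.01 without jejunum library 1). Another sialyltransferase, St3gal4, was at 27.7, 56.7, 37.9 and 33 CPM and 1605, 1008 and 1635 CPM (log2 fold change -5.19 ± 0.37, adjusted p = 4.34e-09). Sialic acid transferases thus included 1 gene strongly on each side. Fut2, which adds the terminal fucose, was at 65.3, 101, 47.4 and 67 CPM and 3.59, 0 and 0 CPM (log2 fold change 5.68 ± 0.67, adjusted p = 3.36e-06, and 4.98 without jejunum library 3).

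Other goblet cell markers were higher in colon for 11 of 22 tested, Muc2 included, and for none in jejunum, and the count was 6 without jejunum library 3. Klk1, a tissue kallikrein, was at 712, 651, 536 and 623 CPM and 0, 12.3 and 6.66 CPM (log2 fold change 6.79 ± 1.07, adjusted p = 0.000238, and 6.13 without jejunum library 1, and 7.51 without jejunum library 2). Agr2, a disulfide isomerase needed to fold Muc2, was at 1094, 1058, 583 and 968 CPM and 275, 164 and 137 CPM (log2 fold change 2.27 ± 0.48, adjusted p = 0.00118). The most abundant marker that was not called, the lectin Zg16, was lower in every colon library than in any jejunum library, at 949, 2082, 3612 and 2773 CPM and 8819, 7504 and 5720.0 CPM (log2 fold change -1.64 ± 0.70, adjusted p = 0.072). Goblet products therefore did not move as 1 block.

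Paneth cell genes were also nearly all on the jejunum side. Of 24 tested, 23 were higher in jejunum and none in colon, with a median log2 fold change of -10.20, or -8.96 with the 10 genes that had no count in 1 group set at their bound. Defa17, an alpha-defensin, was at 0, 0, 0 and 0.173 CPM in colon and 2230.3, 1600.2 and 2188 CPM in jejunum (a 45829-fold ratio with a 95% counting interval of 8222 to 1810400, adjusted p = 1.07e-12). AY761184, a defensin-family transcript, was at 0.12, 0.267, 0 and 0.347 CPM and 5828, 3251 and 5385 CPM (log2 fold change -14.48 ± 0.62, adjusted p = 3.83e-12). Alpha-defensin genes are near-identical copies, so the split of tags among them is uncertain, and how tags that match several copies were counted is not stated. Lyz1, the Paneth cell lysozyme, was at 6.93, 1.87, 7.58 and 6.59 CPM and 1026, 981 and 1397 CPM (log2 fold change -7.60 ± 0.52, adjusted p = 3.13e-09). Mmp7, which activates defensins, was at 0.12, 0, 0.474 and 0.347 CPM and 3.59, 0 and 5.83 CPM (log2 fold change -3.75 ± 1.08, adjusted p = 0.00988). Its call was lost without jejunum library 3 (log2 fold change -3.04, adjusted p = 0.103). Lyz1 and Mmp7 were chosen after their values were seen. Summed over the list, colon libraries held 212, 20.3, 30.3 and 29.5 CPM and jejunum libraries 38400, 23610 and 33110 CPM. Most of the sum in colon library 1 was the pentraxin Mptx1, at 171, 1.07, 3.08 and 3.82 CPM in colon and 2.69, 0 and 1.67 CPM in jejunum (log2 fold change 4.75 ± 3.41, adjusted p = 0.284).

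Enteroendocrine cells secrete gut hormones, and 8 of 22 of their genes were higher in colon and 3 in jejunum, with 1 in jejunum when jejunum library 1 was left out. With all libraries the shares were 36.4% and 13.6%, against 23.7% and 18.7% of all genes tested. Gcg, which encodes glucagon-like peptide 1, was at 140.4, 55, 41 and 55 CPM in colon and 4.49, 7.66 and 2.5 CPM in jejunum (log2 fold change 4.01 ± 0.55, adjusted p = 1.95e-05). Gip, encoding the other incretin, was at 0.239, 0, 0 and 0 CPM and 45.8, 53.6 and 29.2 CPM (a 450.5-fold ratio with a 95% counting interval of 122 to 3762, adjusted p = 1.92e-09), so that the incretin genes were on opposite sides. The granule gene Chgb was at 93.2, 145, 236 and 212 CPM and 10.8, 19.9 and 14.2 CPM (log2 fold change 3.56 ± 0.72, adjusted p = 0.00135). Its relative Chga was not called, at 33.2, 39.8, 172 and 122 CPM and 107, 42.9 and 97.5 CPM (log2 fold change 0.14 ± 0.79, adjusted p = 0.904). For serotonin, the reuptake carrier Slc6a4 was at 3.59, 0.802, 2.13 and 2.95 CPM and 30.5, 58.2 and 33.3 CPM (log2 fold change -4.001 ± 0.60, adjusted p = 4.42e-05). The synthesis gene Tph1 was not called, at 13, 23, 56.9 and 44.6 CPM and 2.69, 15.3 and 0 CPM (log2 fold change 2.81 ± 1.31, adjusted p = 0.1). Few tuft cell markers were called, with 1 of 15 higher in colon and 2 in jejunum. The shares were 6.7% and 13.3%, below the 23.7% and 18.7% of all genes tested. The jejunum count was 1 without jejunum library 1 and 4 without jejunum library 3. The colon gene was Dclk1, at 52.7, 41.7, 46.2 and 45.8 CPM and 3.59, 9.2 and 11.7 CPM (log2 fold change 2.52 ± 0.44, adjusted p = 0.000222).

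**Figure D3:**
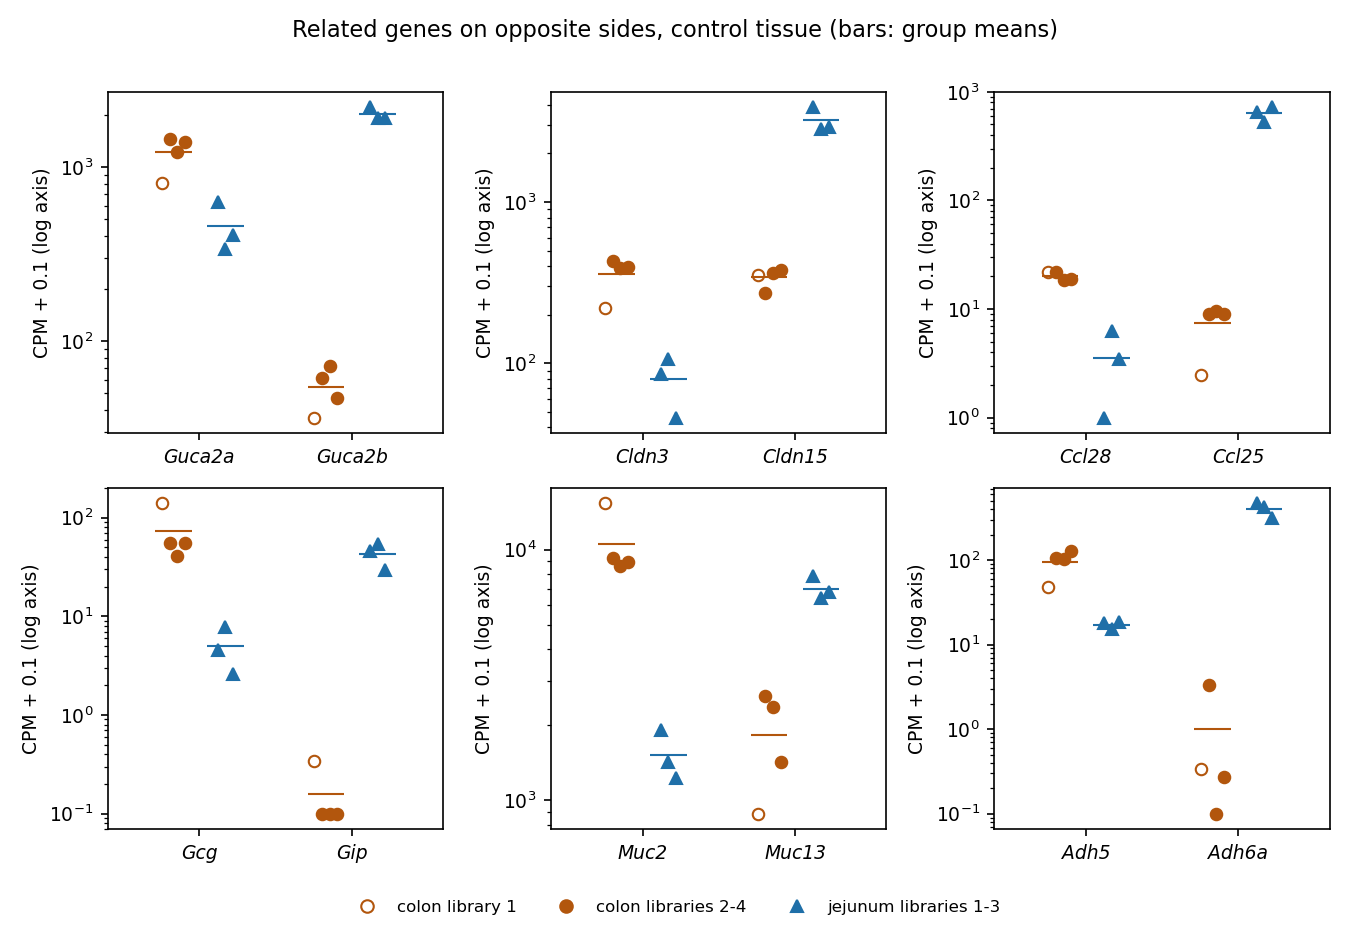
CPM in each control library, on a logarithmic axis (CPM + 0.1), for 6 pairs of related genes of which 1 was higher in colon and the other in jejunum; circles are colon libraries (library 1 open), triangles are jejunum libraries and short bars are group means. In each pair the 4 colon and 3 jejunum libraries change order between the left and the right gene, as in Guca2a (811 to 1452 CPM in colon) and Guca2b (36.1 to 72.0 CPM).

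Immune and defence genes gave a mixed picture. Of 18 surface defence genes tested, 3 were higher in colon (16.7%, against 23.7% of all genes tested) and 6 in jejunum (33.3%, against 18.7%). Dmbt1, a scavenger protein that agglutinates bacteria, was at 1424, 5842, 2562 and 3575 CPM in colon and 70.9, 386 and 22.5 CPM in jejunum (log2 fold change 4.41 ± 0.91, adjusted p = 0.00164, and 6.17 without jejunum library 2). Il22ra1, a chain of the interleukin-22 receptor, was at 26.8, 15.8, 45 and 36.6 CPM and 210.0, 202 and 209.9 CPM (log2 fold change -2.74 ± 0.28, adjusted p = 6.64e-07). The antibacterial lectin Reg3b was not called, at 3.11, 29865, 119 and 120.2 CPM and 14642, 10734 and 3488 CPM (log2 fold change -0.35 ± 2.07, adjusted p = 0.906). That result rested on colon library 2, which held more than any jejunum library; without it Reg3b was called higher in jejunum (log2 fold change -6.89, adjusted p = 0.0139), as was its relative Reg3g (-6.34, adjusted p = 0.00655), at 3.11, 3450.5, 21.3 and 31.4 CPM and 1778, 2321 and 442 CPM.

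Chemokines that draw lymphocytes to each segment were on opposite sides. Ccl25, which recruits cells to the small intestine, was at 2.39, 8.82, 9.48 and 8.85 CPM in colon and 652, 529 and 722 CPM in jejunum (log2 fold change -6.45 ± 0.41, adjusted p = 7.75e-10). Ccl28, which recruits antibody-secreting cells to colon, was at 21.8, 21.6, 18.5 and 18.9 CPM and 0.897, 6.13 and 3.33 CPM (log2 fold change 2.68 ± 0.58, adjusted p = 0.00138). Of the 12 chemokine and homing genes tested, 3 were higher in each segment (25.0%), near the 23.7% and 18.7% of all genes tested. The antigen presentation gene Cd74 was at 115, 73, 121 and 111 CPM and 151, 81.2 and 1964 CPM (log2 fold change -2.80 ± 0.80, adjusted p = 0.0131), with jejunum library 3 far above the others. Without that library its log2 fold change was -0.15, adjusted p = 0.8, and none of the 8 genes of the class II list passed the test, against 3 with it. Of 17 genes of intraepithelial lymphocytes and the butyrophilin-like family, 6 were higher in jejunum and none in colon, but 2 without colon library 1, 3 without colon library 4 and 1 without jejunum library 3. The 6 made up 35.3%, against 18.7% of all genes tested. Btnl2, of the family that holds these lymphocytes in the epithelium, was at 1.67, 6.95, 7.35 and 2.43 CPM and 47.6, 24.5 and 55.8 CPM (log2 fold change -3.30 ± 0.82, adjusted p = 0.00556).

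Enzymes that handle foreign compounds were found on both sides. Of 25 cytochrome P450 genes tested, 15 were higher in jejunum and 3 in colon. Cyp2b10, a target of the receptor CAR, was at 0, 0, 0 and 0.52 CPM in colon and 997, 602 and 597 CPM in jejunum (a 5512-fold ratio with a 95% counting interval of 1884 to 26750, adjusted p = 2.75e-11). Nr1i3, which encodes that receptor, was at 1.2, 0.267, 0 and 0.173 CPM and 35, 24.5 and 22.5 CPM (log2 fold change -5.70 ± 0.73, adjusted p = 8.15e-06, and a 189.6-fold ratio (50.9 to 1592) without colon library 1). Cyp3a11, the main drug-oxidising form, was at 2.75, 3.21, 1.9 and 1.04 CPM and 311, 346 and 214 CPM (log2 fold change -7.02 ± 0.58, adjusted p = 1.42e-07). The most abundant on the colon side was Cyp2c55, at 358, 3890.1, 4602 and 4653 CPM and 400.3, 228 and 217 CPM (log2 fold change 3.58 ± 1.001, adjusted p = 0.0118), where colon library 1 lay among the jejunum libraries.

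Conjugating enzymes and carboxylesterases were higher in colon for 14 of 35 genes and in jejunum for 7, and the colon count was 9 without jejunum library 1 or without jejunum library 3. The sulfotransferase Sult1c2 was at 33, 44.1, 64.7 and 78.2 CPM in colon and had no count in jejunum (at least 54.4-fold higher in colon, adjusted p = 6.02e-07). Sult1a1 was at 198, 226, 268 and 449 CPM and 0, 0 and 5 CPM (log2 fold change 7.15 ± 0.62, adjusted p = 9.07e-08, and 6.51 without jejunum library 1). Another member of that family, Sult1b1, was at 126, 363, 336 and 329 CPM and 921, 839.9 and 818 CPM (log2 fold change -1.58 ± 0.30, adjusted p = 0.000496), so sulfotransferases stood on both sides. Among alcohol and aldehyde dehydrogenases, which clear ethanol and its product acetaldehyde, 3 of 14 were higher in colon and 5 in jejunum. The shares were 21.4% and 35.7%, against 23.7% and 18.7% of all genes tested. All 8 stayed called whichever library was left out. Aldh2, the mitochondrial enzyme for acetaldehyde, was at 342, 339, 332 and 388 CPM and 50.3, 87.4 and 50.8 CPM (log2 fold change 2.50 ± 0.44, adjusted p = 0.000261). Adh5, the glutathione-dependent form, was at 47.6, 106, 103 and 127 CPM and 17.9, 15.3 and 18.3 CPM (log2 fold change 2.46 ± 0.39, adjusted p = 7.79e-05). Adh6a was at 0.239, 3.21, 0 and 0.173 CPM and 473, 428 and 312 CPM (log2 fold change -9.05 ± 0.63, adjusted p = 1.07e-08, and a 2433-fold ratio (830.4 to 11813) without colon library 2).

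The carnitine shuttle gene Cpt1a was at 101, 250.1, 271 and 281 CPM in colon and 24.2, 41.4 and 41.7 CPM in jejunum (log2 fold change 2.67 ± 0.42, adjusted p = 7.41e-05). Over the list of fatty acid oxidation and ketogenesis, 5 of 25 were higher in colon and 5 in jejunum, near the 23.7% and 18.7% of all genes tested, with 8 in colon when colon library 1 was left out and 3 in jejunum when jejunum library 3 was. Of 19 glycolysis and hypoxia genes, 7 were higher in colon (36.8%) and 2 in jejunum (10.5%), against 23.7% and 18.7% of all genes tested. Hk1, a hexokinase, was at 153, 139, 154 and 120.4 CPM and 4.49, 0 and 1.67 CPM (log2 fold change 5.91 ± 0.45, adjusted p = 9.18e-09, and a 132-fold ratio (36.4 to 1088) without jejunum library 1). The glucose carrier Slc2a1 was at 52.5, 101, 143 and 123 CPM and 7.18, 4.6 and 14.2 CPM (log2 fold change 3.52 ± 0.48, adjusted p = 1.83e-05). Ldha, lactate dehydrogenase, was not called, at 1038, 1758, 1366 and 1378 CPM and 1326, 1643 and 1352 CPM (log2 fold change -0.056 ± 0.30, adjusted p = 0.898).

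Of 19 crypt stem cell markers tested, 8 were higher in colon (42.1%) and 2 in jejunum (10.5%), and 9 were not called. Of all genes tested, 23.7% were higher in colon and 18.7% in jejunum. Lgr5, the receptor gene most used to mark these stem cells, was among those not called. It was at 15.3, 8.55, 9.01 and 18.4 CPM in colon and 20.6, 1.53 and 9.16 CPM in jejunum (log2 fold change 0.22 ± 0.55, adjusted p = 0.777). Prom1, encoding the membrane protein CD133, was at 312, 867, 885 and 776 CPM in colon and 69.1, 52.1 and 42.5 CPM in jejunum (log2 fold change 3.70 ± 0.50, adjusted p = 2.13e-05). The receptor gene Ephb3, which sorts crypt cells by position, was at 35.1, 14.2, 15.2 and 18 CPM and 0.897, 0 and 2.5 CPM (log2 fold change 3.95 ± 0.63, adjusted p = 7.73e-05, and a 41.2-fold ratio (7.36 to 1629.8) without jejunum library 3). The Wnt feedback gene Axin2 went the other way, at 28.8, 21.9, 24.2 and 30.5 CPM and 65.5, 65.9 and 37.5 CPM (log2 fold change -1.08 ± 0.30, adjusted p = 0.00708). Olfm4, a stem cell marker of the small intestine, had no count in colon and was at 7.18, 0 and 6.66 CPM in jejunum (at least 34-fold higher in jejunum, adjusted p = 0.000635), with no count in jejunum library 2. Proliferation genes were higher in colon for 7 of 23, against 23.7% of all genes tested, and in jejunum for 1. The colon count was 11 without jejunum library 1 and 4 without jejunum library 3, so it lay above that background or below it depending on the library. Cdk1, the kinase that drives mitosis, was at 37.5, 58, 26.3 and 46.1 CPM and 10.8, 16.9 and 5.83 CPM (log2 fold change 1.98 ± 0.40, adjusted p = 0.000724). Top2a was not called, at 194, 289, 132 and 193 CPM and 178, 288 and 111 CPM (log2 fold change 0.079 ± 0.34, adjusted p = 0.871). Among ligands of the crypt niche, Ihh, the epithelial hedgehog signal, was at 54.6, 79.6, 125 and 116 CPM and 439.8, 172 and 375 CPM (log2 fold change -1.82 ± 0.34, adjusted p = 0.000367).

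Lists of gut wall genes differed in how many members were higher in colon. Of 20 fibroblast and collagen genes, 14 were higher in colon and none in jejunum, with 8 when jejunum library 1 was left out. Dpt, encoding dermatopontin of the extracellular matrix, was at 258, 118, 114 and 111 CPM in colon and 7.18, 13.8 and 5.83 CPM in jejunum (log2 fold change 4.16 ± 0.62, adjusted p = 7.61e-05). Of 14 endothelial markers, 2 were higher in colon and none in jejunum, below the 23.7% of all genes tested. Of 21 enteric neuron and glia genes, 11 were higher in colon and 1 in jejunum. The glial gene Gpm6b was at 43.4, 19.8, 32.7 and 29.7 CPM and 2.69, 1.53 and 1.67 CPM (log2 fold change 3.95 ± 0.74, adjusted p = 0.000413). The 3 markers of interstitial cells of Cajal, the pacemakers of gut movement, were all higher in colon, with Kit at 142, 83.4, 109.5 and 119 CPM and 11.7, 10.7 and 20.8 CPM (log2 fold change 2.94 ± 0.42, adjusted p = 2.85e-05) and Ano1 at 143, 46.2, 47.2 and 36.9 CPM and 6.28, 10.7 and 1.67 CPM (log2 fold change 3.60 ± 0.94, adjusted p = 0.00777, and 2.94 without colon library 1). Kit is also a mast cell marker. Both genes also had counts in control organoids, which are cultures of epithelium. Ano1 was at a mean of 53.2 CPM in colon organoids and Kit at 17.7 CPM in jejunum organoids.

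The smooth muscle count rested on single libraries. Of 20 markers, 8 were higher in colon and none in jejunum, with 2 without colon library 1 and 1 without jejunum library 1 or jejunum library 3. The 8 made up 40.0%, against 23.7% of all genes tested. Myh11, smooth muscle myosin, was at 2386, 789, 1114 and 1059.6 CPM in colon and 146, 359 and 403 CPM in jejunum (log2 fold change 2.14 ± 0.63, adjusted p = 0.0136, but 0.0588 without jejunum library 1). Summed CPM of the list was 26430, 8230.0, 9656 and 9467 in colon and 2096, 6845 and 4907 in jejunum. The epithelial marker Epcam moved the other way, at 836, 1438, 1432 and 1610.2 CPM and 3428, 2347 and 3925 CPM (log2 fold change -1.28 ± 0.28, adjusted p = 0.00136). Epithelial keratins did not all share that direction: of 6 tested, 2 were higher in each segment, among them Krt8 in colon (log2 fold change 1.83 ± 0.48, adjusted p = 0.00642) and Krt20 in jejunum (log2 fold change -1.83 ± 0.45, adjusted p = 0.00347). The part of wall and epithelial cells in the differences above was not tested. Adipocyte markers summed to 157, 255, 1077 and 432 CPM in colon and 1318, 1804 and 2033 CPM in jejunum, with 1 of 11 tested higher in colon and 2 in jejunum, and a large part of the jejunum sum was Lipe, the hormone-sensitive lipase, at 1064, 851 and 1268 CPM. Pancreas markers stayed at or under 46.9 CPM in sum in every library.

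**Figure D4:**
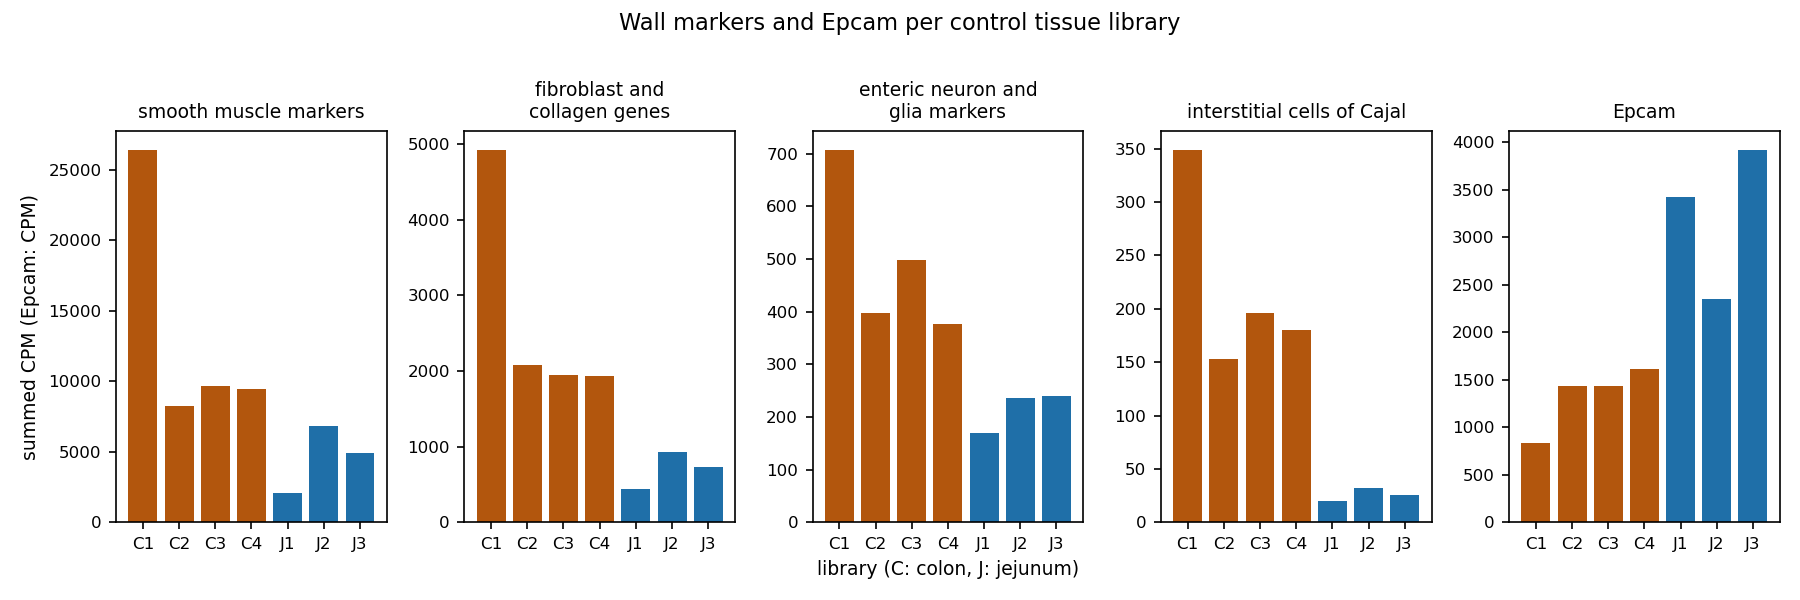
Summed CPM per control library (linear axes, colon libraries 1 to 4 then jejunum libraries 1 to 3, 1 bar each) for smooth muscle, fibroblast and collagen, enteric neuron and glia and Cajal cell marker lists, and Epcam alone. Colon library 1 has the tallest bar for each of the 4 wall lists and the shortest colon bar for Epcam.

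Outside the lists, the highest fold changes among genes with at least 50 CPM in the higher segment included, on the colon side, Nov, a secreted matricellular protein, at 356, 122, 82.7 and 111 CPM in colon and 0, 1.53 and 0 CPM in jejunum (a 594-fold ratio with a 95% counting interval of 107 to 23468, adjusted p = 4.48e-06, and a 313-fold ratio (56.1 to 12374) without colon library 1). The uncharacterised gene 2610528A11Rik was at 173, 862, 647 and 546 CPM and 0, 4.6 and 0.833 CPM (log2 fold change 8.62 ± 1.001, adjusted p = 1.17e-05, and 7.94 without jejunum library 1, and a 1105-fold ratio (198 to 43662) without jejunum library 2). Slc6a14, an amino acid carrier, was at 181, 957, 787 and 573 CPM and 0.897, 13.8 and 0 CPM (log2 fold change 7.39 ± 1.08, adjusted p = 0.000125, and a 1228-fold ratio (220.3 to 48500) without jejunum library 2, and 6.64 without jejunum library 3). Fa2h, which hydroxylates the fatty acids of sphingolipids, was at 50.3, 202, 192 and 215 CPM and 3.59, 0 and 0 CPM (log2 fold change 6.91 ± 0.997, adjusted p = 9.04e-05, and 6.21 without jejunum library 3). On the jejunum side, 11 of the 12 were alpha-defensins, AY761184 or predicted genes, and the other was Fam151a, at 0, 0.267, 0 and 0.173 CPM and 885, 302 and 1024 CPM (a 8979.7-fold ratio with a 95% counting interval of 2483 to 74190, adjusted p = 4.05e-10). The 8 most abundant genes beyond 2-fold included S100a6, a calcium-binding protein, at 2227, 2192, 2392 and 2435 CPM and 939, 700.5 and 729.8 CPM (log2 fold change 1.55 ± 0.26, adjusted p = 0.000113), on the colon side. On the jejunum side they included Spink3, a trypsin inhibitor, at 245, 212, 111 and 68 CPM and 6727, 7420.0 and 6522 CPM (log2 fold change -5.44 ± 0.44, adjusted p = 2.57e-08). The class I chain gene B2m was also among them, at 876, 1669.9, 1987 and 1332 CPM and 8704, 6602 and 12800 CPM (log2 fold change -2.68 ± 0.38, adjusted p = 2.61e-05).

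The segment difference was next set against that in mice given ethanol, which share no library with the controls. Both differences came from 1 fit with the same gene filter and a shared estimate of spread. The control and ethanol lists are therefore not independent. In ethanol tissue 3355 genes were higher in colon (25.2% of those tested) and 3103 in jejunum (23.3%). The genes called higher in colon in both numbered 2323, which is 73.6% of the control list and 69.2% of the ethanol list, and those called higher in jejunum in both numbered 2255 (90.5% and 72.7%). Of the genes called in control tissue, 1 was called on the other side in ethanol tissue: Metap2, a methionine aminopeptidase, was at 181, 150.4, 136 and 133 CPM in control colon and 175, 291 and 214 CPM in control jejunum (log2 fold change -0.59 ± 0.21, adjusted p = 0.0325). That call was lost without colon library 2, 3 or 4 or jejunum library 2 or 3 (adjusted p = 0.0579 to 0.175). It was at 181 ± 21.3 CPM (SD, n = 4) and 129 ± 17.2 CPM (SD, n = 4) in ethanol colon and jejunum, with an adjusted p of 0.556 for the change between the treatments. A direct test of the difference between the 2 segment differences called 0 of 13300 genes (0%) in edgeR, with 837 at an unadjusted p under 0.05 and a smallest adjusted p of 0.389. limma-voom also called 0, with 637 at an unadjusted p under 0.05. Without jejunum library 3 edgeR called 1 gene, Cd74 (a log2 difference between the 2 segment differences of -4.36, adjusted p = 0.0137). Lct, for example, was at 3.56 ± 2.47 CPM (SD, n = 4) in ethanol colon and 3197 ± 1322 CPM (SD, n = 4) in ethanol jejunum, and Guca2b at 42 ± 17 CPM (SD, n = 4) and 1629 ± 523 CPM (SD, n = 4).

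Organoids are grown from crypt epithelium, so the segment difference in the control organoids (2 colon and 4 jejunum libraries) was tested against that in tissue. It differed for 6102 of 14923 genes tested (40.9%), of which 2209 had a higher colon-minus-jejunum difference in organoids and 3893 a lower one. In the organoid fit 24.4% of its 14923 genes were higher in colon and 25.1% in jejunum, and among the 13300 genes tested in tissue these shares were 21.4% and 27.1%. Of the genes higher in colon tissue, 26.0% were called higher in colon organoids and 23.8% in jejunum organoids, near those of all genes. Of the genes higher in jejunum tissue, 36.8% were called higher in jejunum organoids and 16.7% in colon organoids. Read the other way, the genes higher in colon in both made up 28.8% of the 2844 colon organoid calls among the genes tested in tissue, and those higher in jejunum in both 25.4% of the 3604 jejunum organoid calls. The colon organoid group holds only 2 libraries, and CPM in this and the next paragraph were scaled over all 27 libraries. Depth was reversed from tissue: colon organoid libraries held 2036195 and 818240 counts outside Rn45s and jejunum organoid libraries 4083461 to 5429194. Genes with at least 1 count numbered 11779 and 9950 against 13182 to 13383. The part of depth in these differences was not tested.

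Segment transcription factors did not all keep their side in culture. Of the 6 higher in colon tissue, 1 was higher in colon organoids and 3 in jejunum organoids, and of the 11 higher in jejunum tissue, 6 were higher in jejunum organoids and 1 in colon organoids. Of the 9 Hox genes higher in colon tissue, 6 were higher in colon organoids and 1 in jejunum organoids, and of the 3 higher in jejunum tissue, 2 were higher in colon organoids and none in jejunum organoids. Cdx1, higher in colon tissue, was at 4.18 and 11.7 CPM in colon organoids and 255, 278, 349 and 275 CPM in jejunum organoids (adjusted p for the difference from tissue = 1.94e-10), and Hoxc8, higher in jejunum tissue, was at 7.95 and 16.2 CPM and at 0 (adjusted p = 3.99e-06). Both thus stood on the other side in culture, whereas the next 3 genes kept theirs. Gata4 was at 6.69 and 17.1 CPM in the 2 colon organoid libraries and 132, 98, 97.1 and 139.7 CPM in the 4 jejunum ones (adjusted p within organoids = 5.58e-06), and Foxd2 at 45.6 and 123 CPM and 0.948, 1.44, 0.885 and 1.13 CPM (adjusted p = 3.11e-10). Hoxb9 was at 232 and 76.6 CPM in colon organoids and at 0 in the jejunum ones (adjusted p = 6.95e-11), the side it took in tissue. Products of mature cells did not all follow. Lct was at 2.09 and 0 CPM and 6.07, 13.2, 2.65 and 7.66 CPM, both far below its level in jejunum tissue. Guca2a, higher in colon tissue, was at 49.8 and 77.5 CPM in colon organoids and 181, 623, 344 and 394 CPM in jejunum organoids (adjusted p for the difference from tissue = 8.57e-06). Klk1 had no count in colon organoids and was at 102, 115, 72.3 and 84 CPM in jejunum organoids (adjusted p = 2.06e-07), and Sult1c2 was at 0.418 and 0 CPM and 51.2, 68.7, 13 and 57.9 CPM (adjusted p = 2.86e-08), both opposite to tissue. Cldn15 and Defa17 stayed on the jejunum side, at 1.26 and 4.51 CPM and 762, 835, 566 and 670.0 CPM for Cldn15 and 6.28 and 2.7 CPM and 6607, 4661, 3519 and 5099 CPM for Defa17 (adjusted p within organoids = 2.26e-12 and 1.02e-12). Car1 stayed on the colon side, at 777 and 797 CPM and 0, 0.48, 0.221 and 0.451 CPM (adjusted p within organoids = 0.000321).

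**Figure D5:**
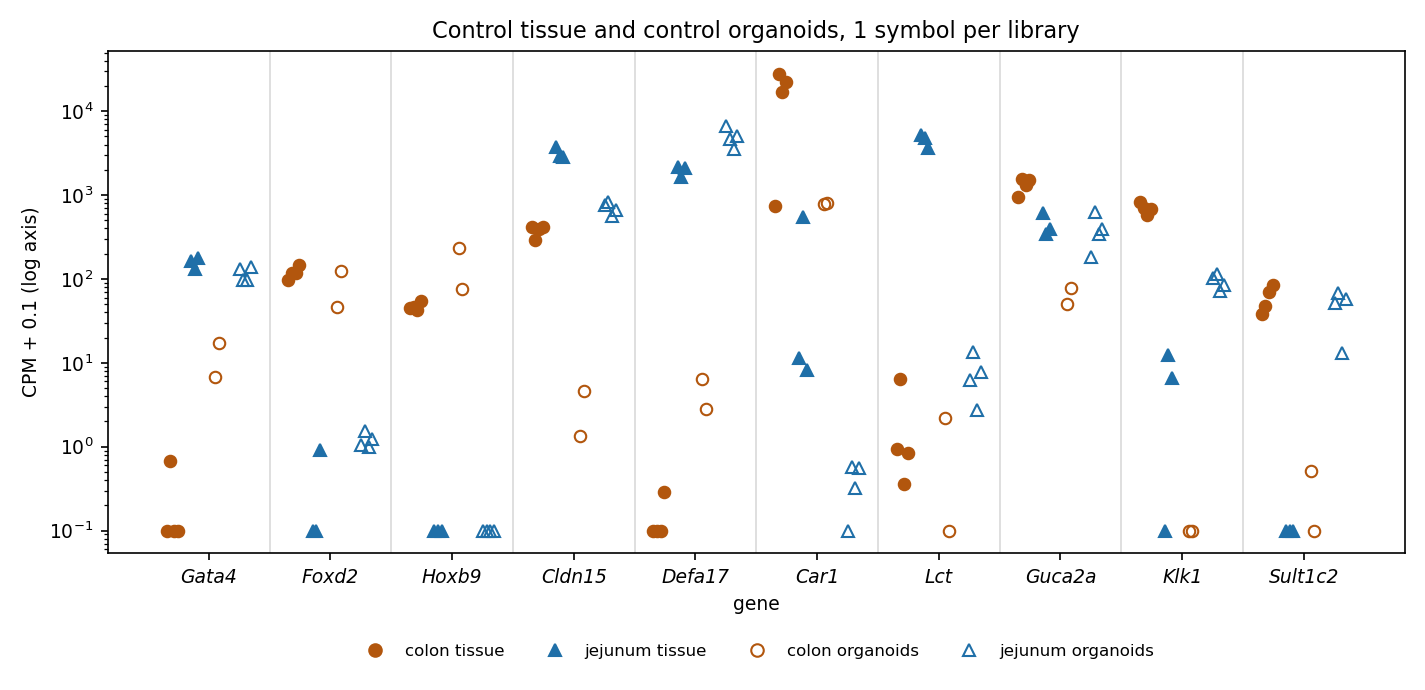
CPM in each control tissue library (filled) and control organoid library (open) of colon (circles) and jejunum (triangles) for 10 genes, on a logarithmic axis (CPM + 0.1), all scaled over 27 libraries. Gata4, Foxd2, Hoxb9, Cldn15, Defa17 and Car1 lie on the same side in tissue and organoids, while Guca2a, Klk1 and Sult1c2 change sides and Lct is low in all organoid libraries.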

How the data were processed

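Counts of tags per gene in 27 QuantSeq libraries were used as deposited; the submitters' processing notes name Trimmomatic 0.32, BWA, HTSeq, limma, edgeR and the build mm10, with no roles given, and name no strand setting. The authors also deposited a normalized table of positive and negative values whose scale is not stated in the sources used here, and it was treated as a score and used only as an alternative. Here Rn45s was removed, libraries were scaled by the trimmed mean of M values (TMM), genes with few counts were removed with filterByExpr, and counts were fitted with edgeR 4.0.16 (robust quasi-likelihood, 1 coefficient per group over the 15 tissue libraries, R 4.3.3). Genes were called at a Benjamini-Hochberg adjusted p under 0.05 over the 13300 genes kept, or with glmTreat beyond a 2-fold difference. CPM were computed here from the deposited counts. The pipeline was tested on simulated counts.

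A fold against a group with no count is a lower bound computed with 3 counts over that group, and a ratio against 1 to 3 counts carries a 95% exact binomial (Clopper-Pearson) interval; both cover counting error only. Of the named genes, up to 5 called members in each direction and up to 3 uncalled members of each list were eligible, any member of the regulator, Hox, claudin, carbonic anhydrase and guanylin lists, and, over all genes, the 12 highest fold changes per segment at 50 CPM or more and the 8 most abundant beyond 2-fold. The comparison, the gene lists and this rule were chosen with earlier results of these data known. Coordinates are from GENCODE vM21 (GRCm38) and promoters from RefSeq (GRCm38.p6). The labels give each library a donor number, but the same numbers recur in ethanol-treated mice, and they were not taken to pair colon with jejunum libraries. Alternatives were other size factors, no filter, the 7 libraries alone, Rn45s kept, each library left out, DESeq2 1.42.0, limma-voom (limma 3.58.1) and limma on the normalized table; thinning to 684906 counts and leaving out colon library 1 with jejunum library 2 were added after seeing the data. Some genes that the naming rule made eligible are not reported here.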

Additional observations from a re-analysis of the deposited data

Results flagged for a closer look

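Within the 4 control colon libraries, 132 of the reported levels were checked for a single library far from the other 3, and 24 met Dixon's criterion. That criterion flags about 1 in 20 independent groups by chance, but these levels share the same 4 libraries and were chosen with results known. No comparison with chance is therefore drawn. The library that stood apart was colon library 1 in 19 of them, colon library 2 in 4, colon library 4 in 1 and library 3 in none. Colon library 1 was above the others for Hoxb13 (138.5 CPM against at most 0.237), Hoxa10 (104 against at most 28.7), Gcg (140.4 against at most 55.0), Nov (356 against at most 122), Muc2 (15340 against at most 9231), Mptx1 (171 against at most 3.82), Ano1 (143 against at most 47.2), Dpt (258 against at most 118) and Cgnl1 (69.4 against at most 23.4). It was below the others for Abcc3 (30.1 CPM against at least 89.8), Car13 (9.08 CPM against at least 18.2), Ccl25 (2.39 against at least 8.82), Cpt1a (101 against at least 250.1), Fa2h (50.3 against at least 191.5), Myo1a (147 against at least 257) and Sult1b1 (126 against at least 329). Its summed CPM was also apart for smooth muscle markers (26430 against at most 9656), fibroblast and collagen genes (4929 against at most 2075) and Paneth cell markers (211.5 against at most 30.3). Colon library 2 was above the others for Reg3b (29865 CPM against at most 120.2), Reg3g (3450.5 against at most 31.4), Lct (5.88 against at most 0.717) and Adh6a (3.21 against at most 0.239), and colon library 4 was below them for Bcmo1 (1.04 CPM against at least 2.51).

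The segment difference of control organoids differed from that of control tissue, by a test of the difference itself, for 6102 genes. Among the 12 genes followed in culture, this held for Gata4 (adjusted p = 6.13e-07), Lct (0.00227), Guca2a (8.57e-06), Klk1 (2.06e-07), Sult1c2 (2.86e-08), Cldn15 (4.32e-08), Defa17 (0.0001), Cdx1 (1.94e-10) and Hoxc8 (3.99e-06), whereas Foxd2, Hoxb9 and Car1 did not pass that test. Tissue holds wall and immune cells, organoids are grown from crypts, and culture medium differs from the gut. Colon organoids held Fn1 at 179 ± 56 CPM (SD) and Col1a1 at 36.5 ± 51.6 CPM (SD), against means of 0.175 and 0.675 CPM in jejunum organoids. Lum and Tagln had no count in colon organoids, and the cell types present in organoids were not tested. Library depth also differed between the organoid groups, so cell mix, culture and depth cannot be told apart here.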

How the results depend on the processing

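Other size factors, the absence of a count filter, Rn45s kept in totals, the 7 control libraries fitted alone and DESeq2 or limma-voom in place of edgeR each left the number of genes called per segment within 1.5 times that reported, with 2648 to 3553 genes higher in colon and 2257 to 2679 in jejunum. Leaving out 1 library gave 2355 to 3132 and 2090 to 2554 genes, and beyond 2-fold 788 (without jejunum library 1) to 1345 and 838 to 1117. Other counts moved further. With the donor number as a replicate block over the 7 libraries, 1754 and 1613 genes were called, and beyond 2-fold 636 and 694. The deviations of same-numbered colon and jejunum libraries from their group means correlated at -0.116, -0.0153 and 0.11, so the numbers were not taken to pair libraries. With counts thinned to the shallowest library these numbers were 610 and 1090, and 215 and 462, and limma on the deposited normalized table called 1347 and 1354 of 8661 genes. The cause of these moves was not tested, except that thinning leaves fewer genes to test (10275). The median log2 fold change of all genes was 0.26, and shifted to 0.39 with no filter, 0.074 with thinning and 0.023 with limma on the normalized values. Without 1 library, the number of genes whose segment difference differed with ethanol was 0 to 1, and the difference in Rn45s share was -60.0 to -56.0 percentage points, with p from 0.0667 to 0.1, the smallest those designs allow.

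The 137 genes followed by name were not all tested in every setting. With thinning, 16 lost their call and 113 kept their result. With limma on the normalized values, 12 lost their call and only 56 kept their result. The replicate block lost 5 and kept 126, limma-voom lost 4 and kept 131, and DESeq2 added 5 and lost none. Several genes that were not called changed sign. Without 1 library, log2 fold changes ran from -4.51 to 10.35 for Hoxb13, -0.19 to 0.059 for Ldha, -6.89 to 0.082 for Reg3b, -0.20 to 0.48 for Top2a, -0.35 to 0.42 for Chga and -0.75 to 0.28 for Cldn4. Without colon library 1 and jejunum library 2 together they were -4.92 for Hoxb13, 0.16 for Ldha, 0.15 for Reg3b, 0.073 for Reg3g and -0.18 for Slc26a3. Thinning gave -0.27 for Top2a, the replicate block -0.32 for Chga, limma-voom -0.20 for Chga and -0.15 for Hoxb13, and limma on the normalized values 0.087 for Ctnnb1, 0.026 for Gucy2c and 0.12 for Ldha. Jejunum depth went down to 684906 counts outside Rn45s, so low levels there rest on few counts.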

Other observations

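Further gene groups were tabulated in the same fit, in which 23.7% of all genes tested were higher in colon and 18.7% in jejunum. Retinoid uptake and conversion included 5 of 17 genes higher in jejunum and 2 in colon: Rbp2, the carrier that traps absorbed retinol in enterocytes, was at 2.63, 6.95, 11.1 and 9.19 CPM in colon and 379.6, 444 and 492 CPM in jejunum (log2 fold change -5.90 ± 0.55, adjusted p = 5.81e-07). Bcmo1, which splits beta-carotene, was at 2.51, 2.67, 2.61 and 1.04 CPM and 37.7, 65.9 and 43.3 CPM (log2 fold change -4.45 ± 0.50, adjusted p = 1.72e-06). The 2 colon calls were both lost without jejunum library 1. ABC transporters were higher in jejunum for 4 of 10 and in colon for 3. The sterol exporter Abcg8 was at 0.956, 8.02, 2.84 and 2.08 CPM and 207, 268 and 186 CPM (log2 fold change -6.09 ± 0.67, adjusted p = 6.8e-06, and -6.86 without colon library 2), and the organic anion exporters took opposite sides, Abcc2 at 2.99, 0.802, 1.66 and 1.04 CPM and 158, 229.9 and 267 CPM (log2 fold change -6.95 ± 0.48, adjusted p = 3.84e-09) and Abcc3 at 30.1, 89.8, 90.3 and 98.2 CPM and 16.2, 23 and 4.17 CPM (log2 fold change 2.50 ± 0.60, adjusted p = 0.00367).

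For calcium, iron and vitamin uptake 4 of 16 genes were higher in each segment, against 23.7% in colon and 18.7% in jejunum of all genes tested. The colon count was 2 when colon library 4, jejunum library 1 or jejunum library 3 was left out. Amn, a subunit of the receptor for vitamin B12 with intrinsic factor, was at 2.15, 25.4, 38.6 and 17.7 CPM and 1861, 1096 and 1641 CPM (log2 fold change -6.21 ± 0.94, adjusted p = 0.0002). Keratins differed by member, with Krt8 at 366, 1121, 702 and 871 CPM and 199, 187 and 259 CPM (log2 fold change 1.83 ± 0.48, adjusted p = 0.00642) and Krt20, of mature surface cells, at 362, 1417, 775 and 1010.0 CPM and 3436, 1976 and 4104 CPM (log2 fold change -1.83 ± 0.45, adjusted p = 0.00347). Cholesterol and fatty acid synthesis had 7 of 30 genes higher in colon and 5 in jejunum, near the 23.7% and 18.7% of all genes tested, the colon count being 3 without jejunum library 1 and 4 without colon library 2 and the jejunum count 2 without jejunum library 3. Against those same shares of all genes, macrophage and dendritic cell markers had 4 of 13 higher in colon and 3 in jejunum, with 1 in colon without jejunum library 1. Circadian clock genes had 2 of 16 higher in colon and 5 in jejunum, and immediate early genes 1 of 17 and 4, the last count being 2 without jejunum library 1; tissue sampling times are not given in the sources used here.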
